A study of Mus musculus with 12 samples.

Results

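The genes described here are 36 genes of G2 and mitosis, taken as the rows of the deposited expression table whose gene name equals a listed symbol. All 36 symbols were found among the 49585 genes of the table. They form 7 groups by role: 6 cyclins and activators of Cdk1, 6 mitotic kinases, 7 genes of the chromosomal passenger complex, centromere and kinetochore, 7 spindle motors and microtubule binders, 5 genes of the midzone and cytokinesis, 3 genes of mitotic exit, and the proliferation markers Mki67 and Top2a.

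A cell enters mitosis when cyclin B binds the kinase Cdk1 and the phosphatase Cdc25c removes the inhibitory phosphates from it. Aurora and Polo kinases then build the spindle, the kinetochore proteins hold the chromosomes to it, and the anaphase-promoting complex with its activator Cdc20 marks cyclin B for destruction so that the cell can leave mitosis. B-Myb and FoxM1 activate these genes and the DREAM complex represses them, and their transcripts accumulate late in the cell cycle. The transcripts are scarce in cells that have stopped dividing, which makes them a common readout of proliferation in cultured macrophage lines.

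The study used RAW264.7, a mouse macrophage-like tumour line that divides in culture, and measured RNA by sequencing after depletion of ribosomal RNA. Every culture received lipopolysaccharide (LPS) at 10 ng/mL together with mouse IFN-γ at 10 ng/mL, so no unstimulated cells are analysed here. Mdivi-1, a small molecule that blocks Drp1, the GTPase that divides mitochondria, was added at 50 µM from the start in 2 of the 4 groups. The 4 groups are LPS with IFN-γ for 24 h, the same with Mdivi-1 for 24 h, LPS with IFN-γ for 96 h and the same with Mdivi-1 for 96 h, each with 3 libraries. The labels do not say whether the libraries of a group came from separate cultures, nor what the cells without Mdivi-1 received in its place. The values are transcripts per 1000000 (TPM), which are corrected for transcript length, so levels of different genes can be compared on this scale.

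Promoter sequences are shown for 5 of the genes because the members are grouped by function, and their promoters show what they share beyond it. The sequences are the RefSeq windows of build GRCm38.p6, from 250 bases before to 50 bases after the annotated start site, written 5′ to 3′ on the strand of the gene. Capitals mark CCAAT, the box bound by NF-Y (or its reverse complement ATTGG), and TTTGAA or TTCGAA, the core of the cell cycle homology element through which the DREAM and B-Myb complexes bind (or its reverse complement TTCAAA). Ccnb1 (chr13:100786437-100786736, minus strand), Ccnb2 (chr9:70421505-70421804, minus strand), Plk1 (chr7:122159185-122159484, plus strand), Cdc20 (chr4:118437294-118437593, minus strand) and Cks2 (chr13:51644982-51645281, plus strand) were chosen as the cyclins B, a kinase, a mitotic exit gene and the gene that stood highest at 96 h.
Ccnb1: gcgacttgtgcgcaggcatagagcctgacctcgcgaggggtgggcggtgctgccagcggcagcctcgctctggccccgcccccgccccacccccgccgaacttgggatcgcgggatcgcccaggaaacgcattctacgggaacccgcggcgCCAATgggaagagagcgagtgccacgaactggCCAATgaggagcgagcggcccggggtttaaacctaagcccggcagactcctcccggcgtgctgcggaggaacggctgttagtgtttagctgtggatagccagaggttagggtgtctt
Ccnb2: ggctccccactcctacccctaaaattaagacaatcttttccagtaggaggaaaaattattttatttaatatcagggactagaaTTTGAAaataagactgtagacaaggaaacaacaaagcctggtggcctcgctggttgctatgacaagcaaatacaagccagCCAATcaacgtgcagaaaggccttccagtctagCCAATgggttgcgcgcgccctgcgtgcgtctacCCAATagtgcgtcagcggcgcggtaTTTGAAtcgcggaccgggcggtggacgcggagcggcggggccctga
Plk1: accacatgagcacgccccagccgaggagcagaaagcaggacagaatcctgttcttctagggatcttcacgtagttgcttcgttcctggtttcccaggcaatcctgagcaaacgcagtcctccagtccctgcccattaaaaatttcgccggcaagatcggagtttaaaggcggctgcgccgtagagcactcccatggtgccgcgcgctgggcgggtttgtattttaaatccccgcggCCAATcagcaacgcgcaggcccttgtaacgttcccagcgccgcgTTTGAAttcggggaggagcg
Cdc20: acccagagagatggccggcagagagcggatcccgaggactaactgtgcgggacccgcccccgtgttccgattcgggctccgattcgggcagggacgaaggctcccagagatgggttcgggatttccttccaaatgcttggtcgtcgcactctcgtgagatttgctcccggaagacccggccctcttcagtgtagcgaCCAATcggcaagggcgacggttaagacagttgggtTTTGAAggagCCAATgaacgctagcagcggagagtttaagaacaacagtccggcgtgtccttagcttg
Cks2: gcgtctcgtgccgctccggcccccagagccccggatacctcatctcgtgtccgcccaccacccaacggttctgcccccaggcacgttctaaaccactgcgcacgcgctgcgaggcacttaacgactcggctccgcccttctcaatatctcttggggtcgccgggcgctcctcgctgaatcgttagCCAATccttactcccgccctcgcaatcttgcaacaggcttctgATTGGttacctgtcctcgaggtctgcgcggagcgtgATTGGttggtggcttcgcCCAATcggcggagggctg

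The windows of Ccnb2, Plk1 and Cdc20 hold both motifs, and those of Ccnb1 and Cks2 hold CCAAT alone. In Ccnb2 the 3 CCAAT boxes lie at -87, -54 and -21 and a TTTGAA lies at 4, counted from the first transcribed base as 0. In Plk1 a CCAAT at -14 is followed by TTTGAA at 30. A window was matched for 31 of the 36 genes and none for Ccna2, Cdc25c, Aurkb, Tpx2 and Kif20a. Of these 31 genes, 25 (80.6%) held CCAAT, against 41.1% of the 27025 genes with a window and 42.7% of the 10406 with a window that were tested for expression. TTTGAA or TTCGAA was in 25 of 31 (80.6%), against 21.7% and 18.1%. Both were in 22 of 31 (71%), against 8.61% and 7.35%, and CCAAT was there at least 2 times in 61.3%, against 13.3% and 16.2%. Both strands were searched, the motifs may share a base, and a match of letters is not a bound site. Birc5, Nuf2 and Nusap1 held neither motif in this window.

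**Figure D1:**
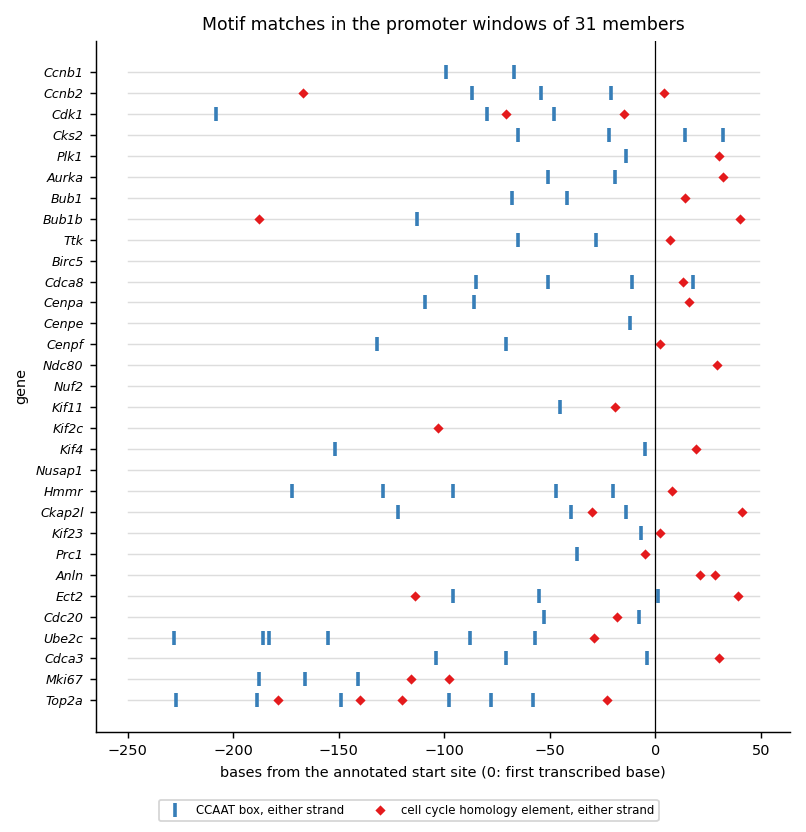
Positions of CCAAT boxes (blue bars) and of TTTGAA or TTCGAA (red diamonds) on either strand in the promoter windows of the 31 genes with a RefSeq window, in bases from the annotated start site (0 is the first transcribed base; 1 row per gene, and 1 window for each gene). Both motifs are found in 22 of the 31 rows, and the rows of Birc5, Nuf2 and Nusap1 are empty.

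The libraries differ widely in what they hold. In the 4 libraries numbered 1 and 2 at 24 h, mitochondrial ribosomal RNA took 3.37% to 4.56% of the TPM, but in the libraries numbered 3 at 24 h it took 91.6% without and 90.8% with Mdivi-1, and at 96 h it took 53.1% to 74.2%. Structured RNA, such as small nuclear and nucleolar RNA, took 46.7% and 46.4% in 24 h libraries 1 and 2 without Mdivi-1. With it the share was 49.6% and 53.1%. Genes other than structured, mitochondrial and satellite-like ones took 47.7% and 48.4% without and 44.2% and 40.2% with Mdivi-1. The shares of a gene's level left with Mdivi-1 given below are not corrected for this. Both 24 h libraries numbered 3 stand apart from the rest of their groups, and they were left out of the fit of 10 libraries used here unless stated. In them the 36 genes lay at 0.0358 to 0.653 TPM without Mdivi-1 and at 0 to 0.362 TPM with it. Olfactory receptor genes (Olfr, 1419 genes), which macrophages do not use, show the level that a silent gene reaches: their median was 0 in the 4 libraries numbered 1 and 2 at 24 h and 0.511 to 2.88 TPM in the 6 libraries at 96 h. Of 12 macrophage markers none was at 0 in any library, and their summed level was 24906 to 28024 TPM in the 4 libraries numbered 1 and 2 at 24 h but 444 to 650 TPM at 96 h.

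At 24 h all 36 genes were lower with Mdivi-1: in libraries 1 and 2 both values with the inhibitor lay below both values without it for every one of them. Their levels summed to 212 and 191 TPM in the libraries without the inhibitor and to 47.8 and 39.5 TPM in those with it. Groups that do not overlap in this direction were found for 40.4% of the 19631 genes tested in the fit of 10 libraries, and for 66.8% of the 11105 genes with a mean of at least 1 TPM in these 4 libraries, so the lack of overlap by itself is common here. The opposite order was found for 2.94% of the 19631 genes and for no member. The size of the difference is given as a description, since the members were chosen with earlier results of these data known. A median of 19.2% of the level was left with Mdivi-1 (11.8% for Ube2c to 36.7% for Cdca8), against a median of 84.3% over those 11105 genes, of which 5% kept less than 40.6%. In limma's moderated test on log2(TPM + 1) with Benjamini-Hochberg adjustment over all 19631 genes, 9 members fell (Ccnb2, Mki67, Plk1, Ube2c, Ccna2, Ckap2l, Top2a, Cdc20 and Tpx2), the rest of the 31 tested members did not pass, and none rose, while 0.295% of all genes tested fell and 0.0% rose. The other 5 members, Cdc25c, Ttk, Kif2c, Kif4 and Ect2, had a mean under 1 TPM over the 10 libraries and were not tested. Some tested members reached that mean only through the 24 h group without Mdivi-1. Plk1 had a mean of 7.16 TPM there and 0.996 TPM at 24 h with Mdivi-1. At 96 h it had 0.904 TPM without and 0.552 TPM with it. The fit with no filter called 4 members (Ccnb2, Mki67, Plk1 and Top2a), and 31 of its 38725 genes fell. The median log2 change over all 36 genes, taken from the fit with no filter, was -1.49, against 0 over the 38725 genes of that fit. Those 38725 are all genes above 0 TPM in at least 1 of the 10 libraries. In the fit of 24 h libraries 1 and 2 alone, the median over its 11105 genes was -0.22.

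Which of them passed changed with the libraries fitted and with the scaling. With 24 h libraries 1 and 2 alone, 35 of 35 tested members fell (limma adjusted p from 3.29e-05 to 0.00383), where 21.2% of 11105 genes fell. There too genes were kept by their mean over the fitted libraries, and 16 members were under 1 TPM in both libraries with Mdivi-1. Once the genes of structured RNA, the mitochondrial genes and satellite-like genes had been taken out and the rest rescaled, 36 of 36 fell in these 4 libraries, where 9.46% of genes fell. Leaving out the third library of the 96 h group without Mdivi-1 gave 31 called, with 1.73% of genes called lower, and leaving out any 1 of the 4 libraries at 24 h gave 0. In those 4 fits no gene at all was called at 24 h (478 to 916 had an unadjusted p under 0.05), and 1 of the 24 h groups was then a single library, assumed to vary like the other groups. The fit of all 12 libraries called no member and no gene at 24 h (15 of 17668 genes had an unadjusted p under 0.05), and the fit of 10 libraries after rescaling called none either (0.0% of genes; 480 of 34696 at an unadjusted p under 0.05).

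**Figure D2:**
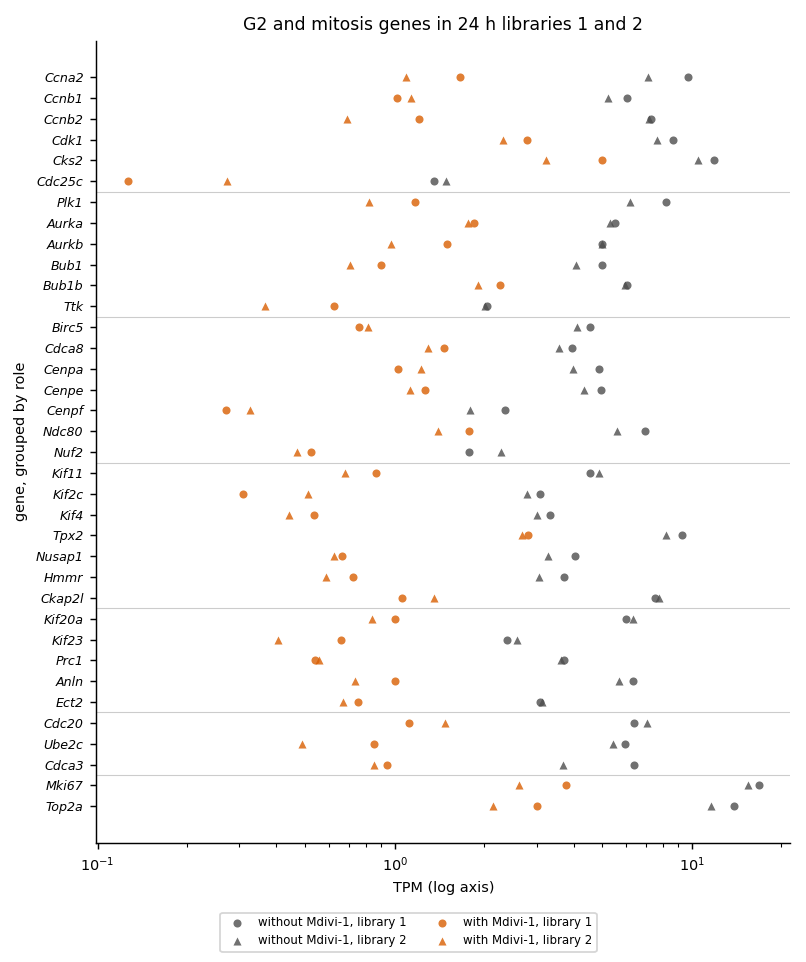
TPM (log axis) of the 36 genes in libraries 1 (circles) and 2 (triangles) at 24 h, without Mdivi-1 (grey) and with it (orange), grouped by role from cyclins at the top to proliferation markers at the bottom. In every row both orange symbols lie to the left of both grey symbols, and the summed level is 212 and 191 TPM without and 47.8 and 39.5 TPM with the inhibitor.

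Among the cyclins and activators of Cdk1, the mitotic cyclin Ccnb2 (ENSMUSG00000032218) had 7.27 and 7.16 TPM in 24 h libraries 1 and 2 without Mdivi-1, 1.20 and 0.692 TPM with it, and 0.0514 and 0.0546 TPM in the libraries numbered 3. It fell by 2.09 on the log2 scale (SE 0.30, limma adjusted p = 0.0227), to 13.1% of its level. Ccna2 (ENSMUSG00000027715), the cyclin of S phase and G2, had 9.73 and 7.12 TPM without and 1.65 and 1.09 TPM with Mdivi-1, and 0.424 and 0.102 TPM in the libraries numbered 3. It fell by 1.99 on the log2 scale (SE 0.30, adjusted p = 0.0314). Both cyclins stood in libraries 1 and 2 without Mdivi-1 well above all other 24 h libraries. Ccnb1 (ENSMUSG00000041431), the main partner of Cdk1 in mitosis, had 6.05 and 5.23 TPM without and 1.02 and 1.13 TPM with Mdivi-1, and 0.635 and 0.198 TPM in the libraries numbered 3. Its groups did not overlap, but its log2 difference of -1.68 ± 0.45 (SE) was not called (adjusted p = 0.24).

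The kinase Cdk1 (ENSMUSG00000019942) itself kept more of its level than either cyclin B. It had 8.61 and 7.64 TPM without and 2.78 and 2.31 TPM with Mdivi-1, 0.229 and 0.146 TPM in the libraries numbered 3, and a log2 difference of -1.37 ± 0.33 (SE, adjusted p = 0.148). Cks2 (ENSMUSG00000062248), the small subunit that docks Cdk1 to its substrates, had 11.8 and 10.5 TPM without and 4.96 and 3.22 TPM with Mdivi-1, and 0.341 and 0.362 TPM in the libraries numbered 3. The log2 difference of Cks2 was -1.28 ± 0.26 (SE, adjusted p = 0.0872). Neither gene was called, and Cks2 had the highest level of the 36 genes in both libraries with Mdivi-1. The phosphatase Cdc25c was the lowest of the 36 genes without Mdivi-1, with a mean of 1.42 TPM, and had 0.200 TPM with it. In this role 36.6% of Cks2, 31.3% of Cdk1 and 13.1% to 19.1% of the other 4 genes were left.

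Among the mitotic kinases, Plk1 (ENSMUSG00000030867), the Polo kinase that matures centrosomes, had 8.15 and 6.17 TPM without and 1.17 and 0.820 TPM with Mdivi-1 at 24 h, and 0.107 and 0.0380 TPM in the libraries numbered 3. It fell by 2.03 on the log2 scale (SE 0.30, adjusted p = 0.025), the only one of the 5 tested genes of this role to be called. Aurka (ENSMUSG00000027496), the Aurora kinase of the spindle poles, had 5.50 and 5.31 TPM without and 1.84 and 1.76 TPM with Mdivi-1, and 0.249 and 0.0990 TPM in the libraries numbered 3. Aurkb (ENSMUSG00000020897), the kinase of the chromosomal passenger complex, had 4.98 and 4.98 TPM without and 1.5 and 0.972 TPM with it, and 0.241 and 0.113 TPM in the libraries numbered 3. Libraries 1 and 2 without Mdivi-1 lay close together for both Aurora kinases, and the groups did not overlap. The log2 differences of -1.19 ± 0.27 and -1.43 ± 0.29 (SE) did not pass (adjusted p = 0.121 and 0.09).

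Bub1 (ENSMUSG00000027379), a kinase of the spindle checkpoint at kinetochores, had 4.97 and 4.06 TPM without and 0.902 and 0.706 TPM with Mdivi-1, 0.0723 and 0.0768 TPM in the libraries numbered 3, and a log2 difference of -1.61 ± 0.34 (SE, adjusted p = 0.109). The checkpoint protein Bub1b went from a mean of 5.98 to 2.09 TPM, with 34.9% left, and the checkpoint kinase Ttk from 2.02 to 0.495 TPM, with 24.5% left. Of these checkpoint genes Bub1 kept the smallest share, 17.8%.

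None of the 7 genes of the chromosomal passenger complex, centromere and kinetochore was called. All 7 were lower without overlap, as were 66.8% of the 11105 genes with a mean of at least 1 TPM in these libraries. Birc5 (ENSMUSG00000017716), the passenger subunit survivin, had 4.54 and 4.11 TPM without and 0.757 and 0.810 TPM with Mdivi-1, and 0.486 and 0.147 TPM in the libraries numbered 3. Its log2 difference was -1.58 ± 0.36 (SE, adjusted p = 0.129). The passenger subunit Cdca8 (borealin) kept the largest share of the 36 genes, 36.7%, with 3.76 TPM without and 1.38 TPM with Mdivi-1. The centromeric histone Cenpa, the kinetochore motor Cenpe and the outer kinetochore subunit Ndc80 kept 25.4%, 25.7% and 25.3%. Nuf2, which pairs with Ndc80 in the same complex, kept 24.5% from a lower mean of 2.02 TPM, and the kinetochore protein Cenpf kept 14.4% from a mean of 2.07 TPM.

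Among the spindle motors and microtubule binders, Tpx2 (ENSMUSG00000027469), which activates Aurora A on the spindle, had 9.29 and 8.15 TPM without and 2.81 and 2.67 TPM with Mdivi-1, and 0.253 and 0.125 TPM in the libraries numbered 3. It fell by 1.37 on the log2 scale (SE 0.21, adjusted p = 0.032). Ckap2l (ENSMUSG00000048327), a spindle protein also called radmis, had 7.54 and 7.73 TPM without and 1.06 and 1.35 TPM with Mdivi-1, and 0.653 and 0.107 TPM in the libraries numbered 3. It fell by 1.97 on the log2 scale (SE 0.33, adjusted p = 0.0432). Tpx2 kept 31.4%, the largest share in this role, and Ckap2l 15.8%. The bipolar kinesin Kif11 kept 16.4%, the microtubule depolymerase Kif2c 13.9%, the chromokinesin Kif4 15.4%, the microtubule bundler Nusap1 17.7% and the spindle protein Hmmr 19.4%, and none of the tested ones among them was called.

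The 5 genes of the midzone and cytokinesis kept 14.5% to 22.9%. Anln, the scaffold anillin of the cleavage furrow, went from a mean of 6.0 to 0.869 TPM (log2 difference -1.91 ± 0.33, SE, adjusted p = 0.0542), and the midzone kinesin Kif20a from 6.17 to 0.920 TPM (-1.90 ± 0.34, adjusted p = 0.0593). Both missed the threshold of 0.05 by little. The midzone bundler Prc1 kept 14.9%, the centralspindlin motor Kif23 21.5%, and Ect2, the exchange factor that activates RhoA at the furrow, 22.9%.

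Among the genes of mitotic exit, Ube2c (ENSMUSG00000001403), the ubiquitin-conjugating enzyme of the anaphase-promoting complex, had 5.94 and 5.43 TPM without and 0.850 and 0.489 TPM with Mdivi-1, and 0.515 and 0.0964 TPM in the libraries numbered 3. It fell by 2.01 on the log2 scale (SE 0.32, adjusted p = 0.032) and kept 11.8%, the smallest share of the 36 genes. Cdc20 (ENSMUSG00000006398), the activator of that complex, had 6.37 and 7.04 TPM without and 1.12 and 1.48 TPM with Mdivi-1, and 0.295 and 0.0447 TPM in the libraries numbered 3. It fell by 1.75 on the log2 scale (SE 0.27, adjusted p = 0.032). Cdca3, an F-box-like protein also called Tome-1, was higher in library 1 than in library 2 without Mdivi-1 by the widest ratio of the 36 genes (1.73), and its log2 difference of -1.63 ± 0.35 (SE, adjusted p = 0.111) was not called.

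The proliferation marker Mki67 (ENSMUSG00000031004) had the highest level of the 36 genes without Mdivi-1, 16.8 and 15.4 TPM, against 3.78 and 2.61 TPM with it and 0.485 and 0.199 TPM in the libraries numbered 3. Its log2 change of -2.04 ± 0.19 (SE) had the smallest adjusted p of the set (0.0049). Top2a (ENSMUSG00000020914), the topoisomerase that untangles sister chromatids, had 13.8 and 11.6 TPM without and 3.01 and 2.14 TPM with it, and 0.210 and 0.111 TPM in the libraries numbered 3. It fell by 1.94 on the log2 scale (SE 0.24, adjusted p = 0.0136). Mki67 kept 19.9% and Top2a 20.3% of the level without Mdivi-1.

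The genes also differed in whether they stayed above 1 TPM. Without Mdivi-1 all 36 were at 1 TPM or more in both libraries, and with it 20 were in library 1 and 15 in library 2, while 16 were under 1 TPM in both. Since log2(TPM + 1) compresses values under 1 TPM, the fitted changes understate the fall of the genes with low levels, such as Cdc25c and Cenpf. Library 1 had the higher value for 28 of 36 genes without Mdivi-1 and for 27 with it. In bulk RNA, fewer cells in G2 or mitosis and less of each RNA per cell cannot be told apart.

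Other genes of the same processes were read from lists of known members. Of 78 other mitosis genes, all had lower values without overlap at 24 h and a median of 32.5% was left (4.68% to 90.5%). Such a lack of overlap was found for 66.8% of the 11105 genes with a mean of at least 1 TPM in 24 h libraries 1 and 2. Of the 58 tested, 1 fell and none rose: Lmnb1, the lamin of the inner nuclear membrane, went from 10.2 ± 2.39 to 2.29 ± 0.101 TPM (SD, n = 2; log2 change -1.75 ± 0.20, SE, adjusted p = 0.0113). Of 22 regulators that transcribe G2 and mitosis genes, 21 did not overlap, the median left was 68.3% and none was called. Foxm1 went from 3.59 to 0.565 TPM (log2 difference -1.56 ± 0.33, SE, adjusted p = 0.106) and Mybl2, which encodes B-Myb, from 2.86 to 0.704 TPM (-1.19 ± 0.39, adjusted p = 0.451). The 17 subunits and regulators of the anaphase-promoting complex, whose partners Ube2c and Cdc20 fell, kept a median of 80.9%, and none was called. Of these 17, 13 did not overlap, against the share of 66.8% above. More genes of these lists were called in the fit of 24 h libraries 1 and 2 alone, where 21.2% of 11105 genes fell. There 61 of 67 tested other mitosis genes fell, 10 of 21 regulators and 4 of 17 genes of the anaphase-promoting complex, and none rose.

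Of 16 cell cycle brakes and p53 targets the median left was 70.4%, and 1 of 14 tested fell. This was Cdkn2c, the inhibitor p18 of the cyclin D kinases, from 6.51 ± 0.0984 to 1.34 ± 0.108 TPM (SD, n = 2; log2 change -1.68 ± 0.29, adjusted p = 0.0483). Cdkn1a, the inhibitor p21, had 113 TPM without and 82.4 TPM with Mdivi-1 at 24 h (log2 difference -0.45 ± 0.13, SE, adjusted p = 0.302). At 96 h it was higher with Mdivi-1, at 25.8 ± 3.18 against 13.7 ± 0.951 TPM (SD, n = 3; log2 change 0.87 ± 0.11, adjusted p = 0.0181), and it was the only gene called at 96 h among the 36 genes and the other lists in the fit of 10 libraries. In the fit of the 96 h libraries alone, none of 23458 genes was called, so Cdkn1a was not called there. Cdkn1b, the inhibitor p27, had 7.91 TPM without and 6.27 TPM with Mdivi-1 at 24 h and was not called (adjusted p = 1). With 24 h libraries 1 and 2 alone, 8 of 15 tested brakes and p53 targets fell and 1 rose, where 21.2% of 11105 genes fell.

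**Figure D3:**
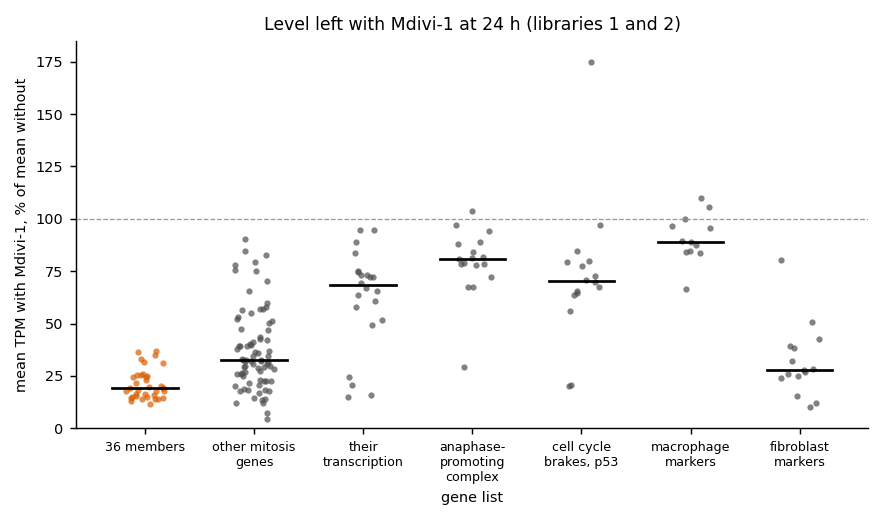
Mean TPM with Mdivi-1 as a percentage of the mean without it in 24 h libraries 1 and 2, for the 36 genes (orange) and for 6 other lists (grey); each point is a gene, the horizontal bar is the median of the list and the dashed line is 100%. The medians are 19.2% for the 36 genes, 32.5% for other mitosis genes, 68.3% for their transcription, 80.9% for the anaphase-promoting complex, 70.4% for brakes, 89.1% for macrophage markers and 27.9% for fibroblast markers.

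Genes known as fibroblast markers were lower with Mdivi-1 in the same libraries. The levels of 15 fibroblast markers summed to 415 and 439 TPM in the libraries without the inhibitor and to 131 and 101 TPM in those with it, with a median of 27.9% left and no marker at 0. Of the 15, 14 were lower without overlap, against 66.8% of the 11105 genes with a mean of at least 1 TPM in these libraries. Of the 10 tested, 4 were called lower (0.295% of all genes tested), with the largest changes in Col1a1, Gas1 and Col3a1. The collagen chain Col1a1 kept 15.5% of its 129 TPM (log2 change -2.67 ± 0.29), Gas1, a membrane protein of growth-arrested fibroblasts, from 12.7 to 1.33 TPM (-2.56 ± 0.31) and the collagen chain Col3a1 kept 12.1% of its level (-2.54 ± 0.35). The summed macrophage markers were 27563 and 28024 TPM without and 25728 and 24906 TPM with Mdivi-1, and a median of 89.1% was left. With 24 h libraries 1 and 2 fitted alone, 11 of 13 tested fibroblast markers and 4 of 12 macrophage markers fell, where 21.2% of 11105 genes did. Epithelial and lymphocyte markers summed to at most 0.534 TPM in these 4 libraries, with 3 or more of each 6 at 0. Bulk RNA cannot tell whether the RAW264.7 cells themselves or other cells carried the fibroblast markers. The part of the cells that carry them in the fall of the mitosis genes was not tested.

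The genes whose pattern over the 10 libraries was most like the mean of the 36 genes, among those outside the set with a mean of at least 1 TPM, were E2f8 (Pearson r = 0.988), 2810417H13Rik (0.986), Gas1 (0.98), Lmnb1 (0.977) and Ryk (0.971). E2f8, a repressor of the E2F family that acts in the cell cycle, had 4.37 and 2.95 TPM without and 0.857 and 0.643 TPM with Mdivi-1 in 24 h libraries 1 and 2, and 0.479 to 0.981 TPM at 96 h. These correlations are a description over 10 libraries that share their normalization and fall into groups, and they carry no p.

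At 96 h most of the 36 genes could not be told from silent genes. A member was taken as above the receptor background when it was over the 95th percentile of the Olfr genes in the same library, in all 3 libraries of a group. That percentile stood at 7.01, 5.56 and 1.31 TPM in the libraries without the inhibitor and at 3.06, 3.73 and 4.59 TPM in those with it. Only Cks2 was above it in all 3 libraries of each group, which is 1 of 36 genes and no larger a share than among other genes: 3.74% of 48130 other genes were above it without Mdivi-1 and 4.93% with it. Of the Olfr genes themselves 1.48% and 2.11% were. Cks2 had 7.72, 6.23 and 5.76 TPM without Mdivi-1 and 5.12, 7.35 and 9.10 TPM with it. The groups overlapped, with a log2 difference of 0.09 (95% interval -0.37 to 0.56, adjusted p = 1). It lay above the stricter 99th percentile in all 3 libraries with Mdivi-1, and without Mdivi-1 in library 3 alone. Of the other genes 1.95% and 2.68% lay above that percentile in all 3 libraries without and with Mdivi-1.

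The library numbered 3 without Mdivi-1 at 96 h had the lowest receptor background, with a median of 0.511 TPM, and there 7 of the 36 genes lay above the 95th percentile (Ccnb2, Cks2, Bub1b, Tpx2, Ube2c, Mki67 and Top2a). In each of the other 5 libraries at 96 h only Cks2 did. Against the median of the Olfr genes in place of the 95th percentile, 6 genes lay above in all 3 libraries without Mdivi-1 (Ccnb1, Cks2, Cenpf, Nuf2, Tpx2 and Mki67) and 4 with it (Cks2, Tpx2, Ube2c and Mki67), so 3 genes, Cks2, Tpx2 and Mki67, did so in all 6. Of the other genes 15% and 17.1% lay above that median in all 3 libraries without and with Mdivi-1, and of the Olfr genes themselves 28.5% and 29.7%. At 24 h, by contrast, all 36 genes lay above the 95th percentile in libraries 1 and 2 of both groups, where that percentile was 0 TPM, while in the libraries numbered 3 there were 0 without and 1 with Mdivi-1 (Cks2).

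**Figure D4:**
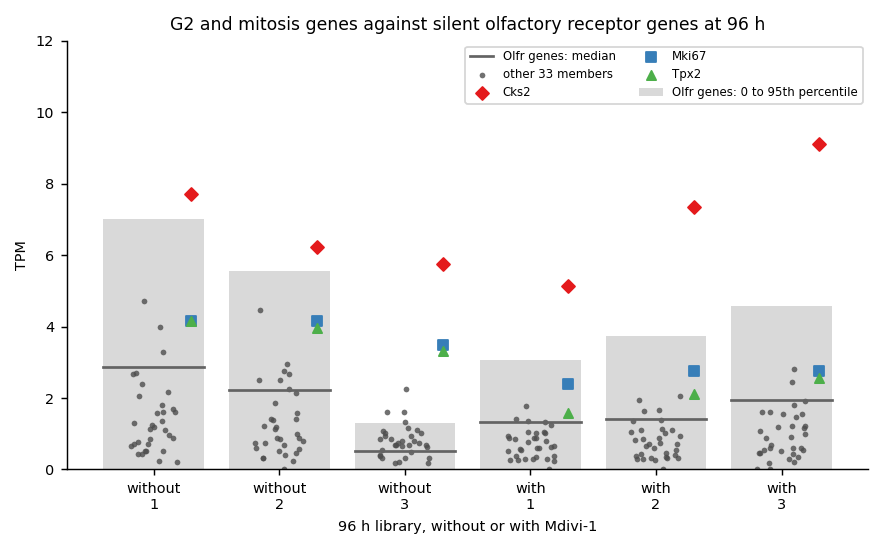
TPM of the 36 genes in each of the 6 libraries at 96 h, with the range from 0 to the 95th percentile of 1419 olfactory receptor (Olfr) genes as a grey bar and their median as a line; Cks2 (red diamonds), Mki67 (blue squares) and Tpx2 (green triangles) are marked, and dots are the other 33 genes, spread sideways at random. Cks2 is above the grey bar in all 6 libraries, and library 3 without Mdivi-1 has the lowest bar, at 1.31 TPM.

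With Mdivi-1 at 96 h no member was called by limma: 4 of 31 tested had an unadjusted p under 0.05, against 1117 of all 19631 genes, the smallest adjusted p was 0.376 (Tpx2), and of all genes tested 0.0408% fell, 0.102% rose and 0.143% did either. Tpx2 had 4.15, 3.96 and 3.31 TPM without and 1.57, 2.11 and 2.55 TPM with Mdivi-1, a log2 difference of -0.65 with a 95% interval of -1.04 to -0.26. All 3 values with the inhibitor lay below all 3 without it. Mki67 had 4.15, 4.15 and 3.49 TPM without and 2.39, 2.75 and 2.77 TPM with it (-0.44, 95% interval -0.79 to -0.09), again with no overlap. Top2a had 1.62, 2.15 and 1.60 TPM without and 0.878, 0.741 and 1.21 TPM with it (-0.52, 95% interval -0.96 to -0.08). The same order held for Ccnb2, with 0.952, 1.13 and 1.60 TPM without and 0.534, 0.415 and 0.217 TPM with it (-0.68, 95% interval -1.22 to -0.13). These values lie among those of silent genes except where stated above. The groups did not overlap, in the lower direction, for 11 of the 36 genes (Ccnb2, Plk1, Bub1, Bub1b, Kif4, Tpx2, Nusap1, Hmmr, Cdca3, Mki67 and Top2a), against 4.05% of the tested genes, and for none in the higher direction (2.13%). The 36 include the 5 members under the filter, Kif4 among them, which the shares over tested genes do not. The median of the Olfr genes was 2.88, 2.21 and 0.511 TPM in the libraries without the inhibitor and 1.32, 1.42 and 1.94 TPM in those with it, and the part of that background in these differences was not tested. Without the third library of the group without Mdivi-1, Birc5 and Tpx2 were called lower, where 3.24% of genes were.

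The remaining genes with values in every library overlapped between the groups at 96 h, other than Plk1 and Bub1. Plk1 had 1.10, 0.980 and 0.628 TPM without and 0.620, 0.434 and 0.603 TPM with Mdivi-1. Bub1 had 0.446, 0.396 and 0.493 TPM without and 0.376, 0.365 and 0.305 TPM with it. Both were lower in all 3 libraries with the inhibitor, at levels under the 95th percentile of the Olfr genes. Among the cyclins, Ccna2 had 2.38, 1.58 and 1.01 TPM without and 1.40, 0.934 and 1.22 TPM with it. Ccnb1 had 4.72, 2.96 and 0.800 TPM without and 1.36, 1.36 and 2.44 TPM with it. Cdk1 had 2.68, 2.50 and 0.935 TPM without and 1.03, 1.66 and 1.92 TPM with it. In the group without Mdivi-1 these 3 genes were lowest in library 3, where the receptor median was lowest too. Birc5 showed the same order without Mdivi-1, with 2.71, 2.66 and 0.856 TPM, against 0.882, 1.03 and 1.56 TPM with it. Ckap2l had 2.17, 2.75 and 1.08 TPM without and 0.609, 0.811 and 1.48 TPM with it, with the groups overlapping through library 3 of each. Ube2c had 2.05, 4.47 and 2.24 TPM without and 1.78, 1.96 and 2.81 TPM with it. Neither Aurora kinase nor Cdc20 lay above the 95th percentile of the Olfr genes in any library at 96 h. Aurka had 0.768, 1.19 and 1.09 TPM without and 0.647, 0.879 and 1.18 TPM with it. Aurkb had 0.659, 0.585 and 0.677 TPM without and 0.926, 0.647 and 0.675 TPM with it. Cdc20 had 1.30, 0.692 and 0.739 TPM without and 1.02, 0.851 and 1.07 TPM with it. The other 20 genes lay between 0 and 3.98 TPM without Mdivi-1, the highest being Cenpf, and between 0 and 2.06 TPM with it, the highest being Nuf2.

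The difference between the Mdivi-1 effects at 96 h and at 24 h was tested directly. No member was called (of all genes tested 0.0102% were called below 0, 0.112% above 0 and 0.122% in either direction), and 28 of 31 tested members had an unadjusted p under 0.05, against 868 of all 19631 genes. The differences of these 31 members were all above 0, and the median over all 19631 genes was 0.09 (log2). Mki67 came closest, with a difference of 1.60 ± 0.25 on the log2 scale (SE, 95% interval 1.04 to 2.16, adjusted p = 0.0552). It was called when the first library of the 96 h group without Mdivi-1 was left out (0.192% of genes called above 0). When the third was left out, 5 members were called (Mki67, Plk1, Cdc20, Anln and Kif20a), with 0.279% of genes called above 0. The levels at 96 h lie near the receptor background. Some of these members, such as Plk1, Anln and Kif20a, passed the filter only through the 24 h group without Mdivi-1. For genes near the background in both 96 h groups, a fall at 24 h by itself gives a difference above 0. These counts and calls therefore cannot show that the effect of Mdivi-1 changed with time.

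**Figure D5:**
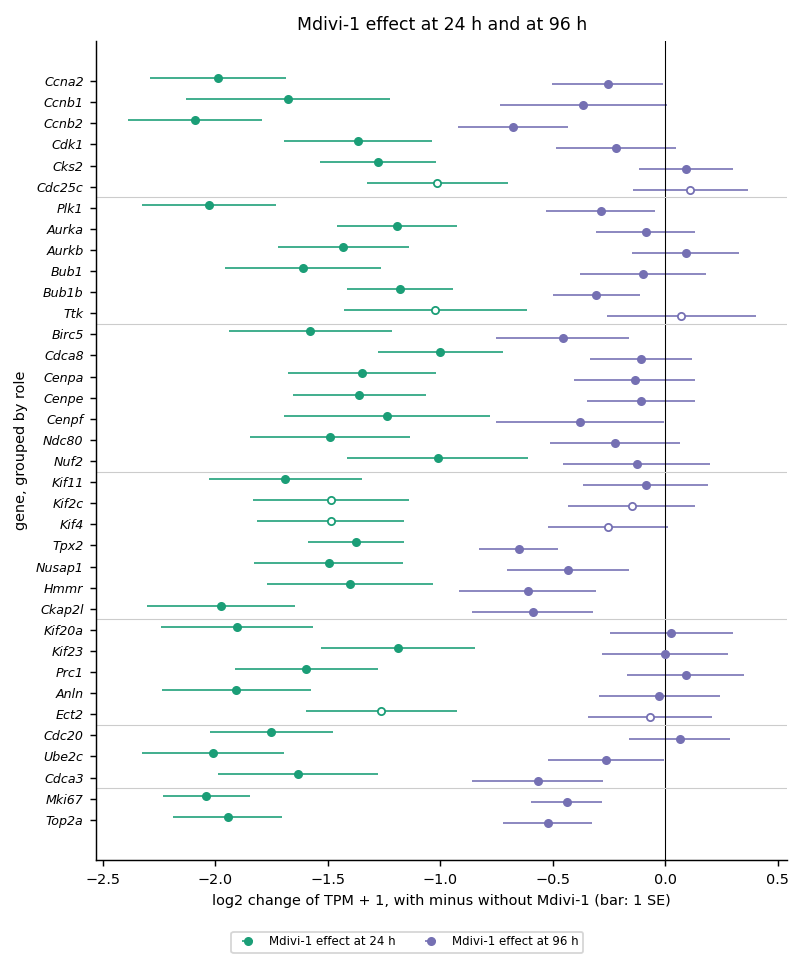
Log2 change of TPM + 1 with against without Mdivi-1 for the 36 genes at 24 h (green) and 96 h (purple), with bars of 1 SE, from the fit of 10 libraries; open circles are the 5 genes with a mean under 1 TPM, taken from the fit with no filter. All green points lie between -2.09 and -1.0 (log2), and all purple points between -0.68 and 0.11.

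Between 24 h and 96 h the genes could be compared only across libraries of very different composition. Without Mdivi-1, 27 of 31 tested members were lower at 96 h and none higher, where 46.9% of all genes tested were called lower and 36.3% higher. After the same rescaling without structured RNA and mitochondrial genes, 2 of 36 were lower (Kif20a and Anln) and 7 higher (Birc5, Tpx2, Kif23, Ube2c, Cks2, Nuf2 and Cenpf), where 8.69% and 54.6% of genes were. With Mdivi-1, 3 fell (Ndc80, Top2a and Bub1b) and 2 rose (Cks2 and Ube2c) in the fit of TPM, where 44.0% of genes fell and 35.3% rose, and after rescaling none of the 36 fell and 24 rose, where 8.68% and 57.6% of genes did. The direction thus turned with the scaling, and time cannot be told apart from the composition of the libraries. The summed level of the 36 genes, with the total of all genes other than structured, mitochondrial and satellite-like ones set to 1000000, was 444 and 394 without and 108 and 98.4 with Mdivi-1 in 24 h libraries 1 and 2. At 96 h it was 553 to 566 without and 397 to 488 with it, and in the 24 h libraries numbered 3 it was 590 and 495.

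Neighbouring and similar genes bear on which reads were counted for a member. In the GENCODE M21 annotation, 11 of the 36 genes overlap an exon of a gene on the other strand, and 10 have 5% or more of their transcript's 31-base words in common with 1 other gene. The share left at 24 h differed among these partners: Exosc9, which shares words with Ccna2, kept 91.3%, Elovl1, opposite Cdc20, 99.1%, Pdzd11, which shares words with Kif4, 101%, Cdc23, which shares words with Kif20a, 81.6%, and the pseudogene Plk-ps1 88.3%. Rccd1, which shares words with Prc1, kept 71.1%, 9930104L06Rik, opposite Cdca8, 77.1%, and Oip5, opposite Nusap1 and itself a centromere gene, 26%. Cks2 shares 31.7% of its words with the processed pseudogene Gm15452, which is listed at 0 in every library. How reads were shared between them is not given in the sources used here. It also has the shortest annotated sequence of the set, with 662 such words. Ccnb1 shares 22.9% of its words with the pseudogene Ccnb1-ps, which is not analysed here.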

How the data were processed

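RNA of 12 libraries of RAW264.7 cells was sequenced, 3 in each of 4 groups. Per the labels, ribosomal RNA was depleted from 100 ng of total RNA and libraries were made with a directional kit. The authors deposited TPM for 49585 genes, and no counts are used here, so the sequencing depth is unknown and no counting interval is given. Which aligner, counting program and annotation were used is not given in the sources used here. Of builds, the submitters' processing notes list hg19, a human build, whereas the table has mouse Ensembl identifiers, of which 49326 are in GENCODE M21, so no coordinates were taken from the table. 0 columns of the table were unmapped, and no pair of libraries shared identical values (0%).

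The members and gene lists were chosen with earlier results of these data known. Genes with a mean of at least 1 TPM were fitted as log2(TPM + 1) with limma-trend (limma 3.58.1, R 4.3.3), as 4 group means over 10 libraries with 6 residual degrees of freedom, without both 24 h libraries numbered 3. P-values are from limma's moderated test, adjusted by Benjamini-Hochberg over all genes tested, with calls made under 0.05. Since separate cultures are not stated, they reflect the spread among these libraries, which may be technical. The script was tested on simulated data. Alternatives were other pseudocounts (0.1 and 10), filters (none and 5 TPM), scalings, subsets of libraries, a replicate block and each library left out. Rescaling left out structured RNA, mitochondrial genes and 13 satellite-like genes.

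Values in every library are given for members called at 24 h and for 14 classical genes whatever their values, the others by role. From each other list up to 3 called genes with the largest change are named, beside Foxm1, Mybl2, Cdkn1a and Cdkn1b. Promoter windows are from RefSeq (GRCm38.p6). Tables and plots used Python 3.11.15, pandas 2.3.3, numpy 2.4.6, scipy 1.17.1 and matplotlib 3.10.9.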

Additional observations from a re-analysis of the deposited data

How the results depend on the processing

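Against 9 members called at 24 h, no call was made with all 12 libraries, after rescaling, after subtraction of the receptor background, with median-of-ratios scaling or with the replicate block (0 in each), nor with background subtraction and a pseudocount and filter of 10 (0), an alternative chosen after seeing the data. Of all genes, 1 of 19631 fell with the replicate block and 0 fell in each of the others. A pseudocount of 0.1 gave 3 (25 of 19631 genes fell), one of 10 gave 27 (779 of 19631) and no filter 4 (31 of 38725). A mean of at least 5 TPM gave 2 (74 of 5813). Only Cks2 and Mki67 reached that mean, so every member tested there was called. With 24 h libraries 1 and 2 alone 35 were called (2350 of 11105 genes fell). Median-of-ratios scaling of the same libraries gave 35 (850 of 11070 fell) and rescaling gave 36 (1173 of 12401). A mean of at least 5 TPM in them gave 5 (1949 of 7495), which were all the members that reached it. These settings with a scaling or the 5 TPM filter were chosen after seeing the data. Leaving out 1 library gave 0 to 31: 0 without any 1 of the 4 libraries at 24 h (where no gene was called), 15 without the first and 31 without the third library at 96 h without Mdivi-1, and 5 without the second library at 96 h with it.

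At 96 h the fit of the 96 h libraries alone called no member and none of 23458 genes, and leaving out 1 library gave 0 to 2 calls. For the difference of the effects leaving out 1 library gave 0 to 5, and a pseudocount of 10 gave 16 (283 of 19631 genes called above 0, against 22 with a pseudocount of 1). A mean of at least 5 TPM gave 1 of the 2 members tested there. For time without Mdivi-1 (27 called), members called in either direction are given with all genes called lower and higher. There were 0 with all 12 libraries (67 and 4936 of 17668 genes). At a mean of at least 5 TPM there were 2 (5170 and 534 of 5813), which is every member tested there. Rescaling gave 9 (3014 and 18940 of 34696) and background subtraction 17 (4828 and 3734 of 21523). Median-of-ratios scaling gave 8 (4163 and 12864 of 24433). Background subtraction with a pseudocount and filter of 10 gave 1 (2523 and 2676 of 9794). For time with Mdivi-1 (5 called), all 12 libraries gave 0 (36 and 5579 of 17668 genes). A mean of at least 5 TPM gave 1 of the 2 members tested (5121 and 548 of 5813), and rescaling gave 24 (3011 and 19980 of 34696). Background subtraction gave 14 (4935 and 4041 of 21523), and median-of-ratios scaling gave 15 (4567 and 13283 of 24433). Background subtraction with a pseudocount and filter of 10 gave 2 (2421 and 2712 of 9794). A pseudocount of 0.1 gave 10 (8587 and 7827 of 19631), and no mean-variance trend gave 10 (8699 and 7077 of 19631). The cause of these changes was not tested. Above the receptor background at 96 h without Mdivi-1 there were 0 members at the 99th percentile and 6 at the median, and with Mdivi-1 there were 4 at the median. Leaving out 1 library gave 1 to 1.

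The deviations of libraries with the same number from their group means had correlations of -0.0227 at 24 h and of -0.11, -0.0205 and -0.24 at 96 h. These are across genes, which are not independent replicates. With so few libraries in a group, the deviations are tied to each other by the group mean. The check also leaves out the 24 h libraries numbered 3, so it cannot decide whether the numbers pair the libraries. With the replicate block 0 members were called at 24 h, 0 at 96 h, 26 for time without and 4 for time with Mdivi-1. Of 19631 genes, 8843 were lower and 7233 higher for time without Mdivi-1, and 8277 lower and 7082 higher for time with it. At 96 h the receptor background of 0.511 to 2.88 TPM limits what can be read for genes at these levels.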
